A study of Saccharum hybrid cultivar with 68 samples.

Results

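Of the 100182 assembled transcripts (unigenes) counted in leaf and stem of 2 sugarcane genotypes, 6 were present in the stem of both genotypes and had next to no reads in the leaf of either. They were chosen on CPM, the count of a unigene divided by the summed counts of its library and multiplied by 1000000. A unigene was taken where its median was at least 10 CPM over the 9 stem libraries of ROC22 and over the 9 of GT86-887, and below 0.1 CPM over the 9 leaf libraries of each. The stem minimum was met in both genotypes by 10805 unigenes and the leaf limit by 55129, and 6 met both. The 6 are c104294.graph_c0, c105643.graph_c0, c109697.graph_c0, c115151.graph_c0, c125072.graph_c1 and c135030.graph_c1, written below by their c number. The files pair these identifiers with no gene name or function and hold no unigene sequence, so neither a role nor a sequence is given for any of them. "Stem-only" here means the medians of the rule and not an absence of leaf reads, since each of the 6 had reads in 5 to 12 of the 18 leaf libraries.

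The mRNA of stem and leaf was sequenced from ROC22 and from GT86-887, hybrid cultivars of sugarcane that the series describes as contrasting in sucrose content. The sources used here do not say in which of them it is higher. Tissue was taken at an early, a middle and a late stage of sucrose accumulation, which gave 6 stem and 6 leaf groups of 3 libraries each. No treatment or transgene is named, and whether replicate libraries stem from different plants is not stated, so that p-values here measure only the spread between libraries, which may be technical.

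In sugarcane the mature leaf fixes carbon and exports it as sucrose through the phloem, and the stem takes the sucrose up and stores it in the vacuoles of its parenchyma while its internodes elongate and their walls lignify. A leaf blade and a stem share vascular tissue, epidermis and ground tissue, but the stem holds most of the storage parenchyma and of the thickened, lignified tissue. Because no unigene carries a name, markers of these cell types could not be looked up, and the tissue labels could not be checked against them. In libraries made from whole tissue, fewer cells of a type and less RNA per cell cannot be told apart, and this holds for every difference below.

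The summed counts were 19241718 to 24929466 per stem library and 17970015 to 24414986 per leaf library. In a leaf library the limit of 0.1 CPM corresponded to 1.80 to 2.44 reads, and a count of 0 allowed a level of up to 0.123 to 0.167 CPM (3 reads, counting error only). A leaf median under 0.1 CPM is therefore below what a single library resolves. Replicate 1 of GT86-887 stem at the middle stage stood apart: its log2 levels correlated with those of the other libraries of its group at a mean r of 0.879, whereas that mean was at least 0.953 for every stem library of the other groups. By a chi-square of replicate counts it also differed most from its group, at 102 and 89.4 per unigene. Other stem libraries differed from their groups by this measure too. The values were 67.5 and 67.1 for replicate 2 of ROC22 late, 49.0 and 48.0 for replicate 2 of GT86-887 early, and 55.4 and 73.8 for replicate 3 of GT86-887 late. The remaining pair of each of these groups gave 15.8, 13.3 and 14.2.

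**Figure D1:**
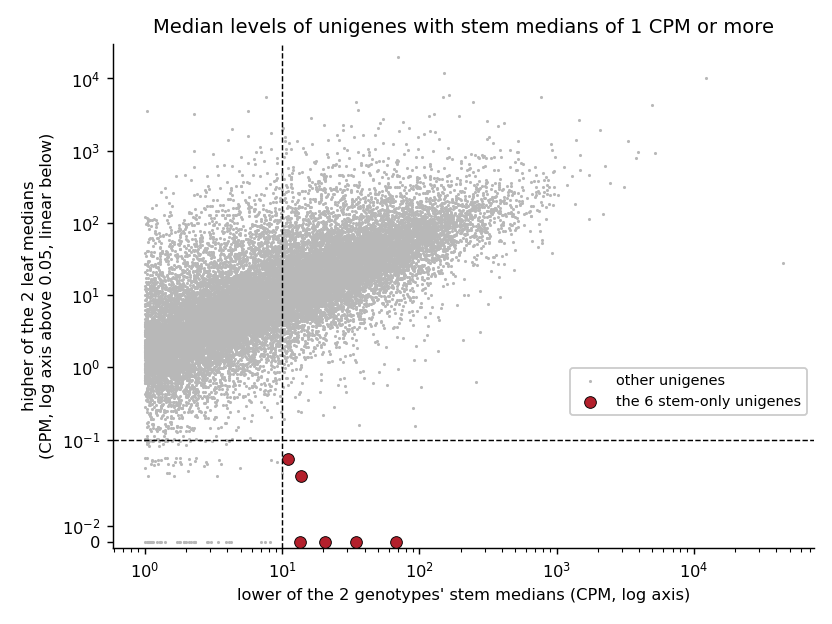
Each point is a unigene whose stem median reached 1 CPM in both genotypes. The x axis shows the lower of the stem medians of ROC22 and GT86-887 (CPM, log axis) and the y axis the higher of the leaf medians (CPM, log axis above 0.05, linear below). Dashed lines mark the stem minimum of 10 CPM and the leaf limit of 0.1 CPM, and the 6 stem-only unigenes (red) lie right of the first and below the second, 4 of them with a leaf median of 0 in both genotypes.

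The leaf median was 0 in both genotypes for c104294, c109697, c125072 and c135030. A count of 0 in a single leaf library does not show a level below the limit of 0.1 CPM. Over all 18 leaf libraries the means were 0.0633 CPM for c104294, 0.0542 for c109697 and 0.0386 for c125072. They rest on 23, 19 and 14 reads. The mean of c135030 was 0.133 CPM, above the limit. For c105643 the leaf median was 0.0503 CPM in ROC22 and 0.0533 CPM in GT86-887, and for c115151 it was 0.0410 CPM in ROC22 and 0 in GT86-887. c105643 was also the member nearest to the stem minimum, with stem medians of 11.0 CPM in ROC22 and 11.8 CPM in GT86-887. Just outside, the unigene that met the stem minimum with the next higher leaf median had a stem median of at least 93.4 CPM in both genotypes and a leaf median of up to 0.153 CPM. On the other side, the unigene closest below the stem minimum had a stem median of 9.99 CPM in its lower genotype and a leaf median of up to 0.0428 CPM. The plot of median stem and leaf levels shows that the members sit at the thin lower edge of a cloud of unigenes found in both tissues.

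Mean levels in stem were 75.0 to 864 times those in leaf, where the leaf means rest on 14 to 56 reads per unigene. As these values chose the members they are a description, and no test applies. c109697 averaged 46.8 ± 15.9 CPM in stem against 0.0542 ± 0.128 CPM in leaf (SD, n = 18 each), a ratio of 864. For c135030 the stem mean was 80.4 ± 29.5 CPM and the leaf mean 0.133 ± 0.284 CPM, a ratio of 605. The lowest of the 6 ratios belonged to c105643, with 11.6 ± 2.84 CPM in stem and 0.155 ± 0.302 CPM in leaf, a ratio of 75.0. The ratios of c104294, c115151 and c125072 were 542, 301 and 598. A single leaf library moved each ratio by more than 1.5 times. Without replicate 2 of ROC22 leaf at the middle stage, the ratio was 1094 for c104294, 1693 for c109697, 1350 for c125072 and 989 for c135030. Without replicate 1 of GT86-887 leaf at the middle stage, it was 132 for c105643 and 576 for c115151. In summed reads, c135030 had 31605 over the stem libraries and 47 over the leaf libraries, and c125072 had 9102 in stem and 14 in leaf.

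Every stem library lay above every leaf library for each of the 6 unigenes. Of the 28316 unigenes with a mean of at least 1 CPM over the 36 libraries, 13.3% showed this separation. The rule chose the members on their stem and leaf medians and so favoured it, which makes this a description and not support. The gap was wide for c109697, c135030 and c125072, whose lowest stem library exceeded their highest leaf library 61.0-fold, 48.1-fold and 38.6-fold. It was narrow for c115151 (4.34-fold), c105643 (4.10-fold) and c104294 (1.31-fold). For c104294 the narrow gap came from the stem: its lowest stem library held 0.797 CPM (16 reads) and its highest leaf library 0.606 CPM (12 reads). These counts lie within counting error of each other, so for c104294 the separation was not resolved.

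**Figure D2:**
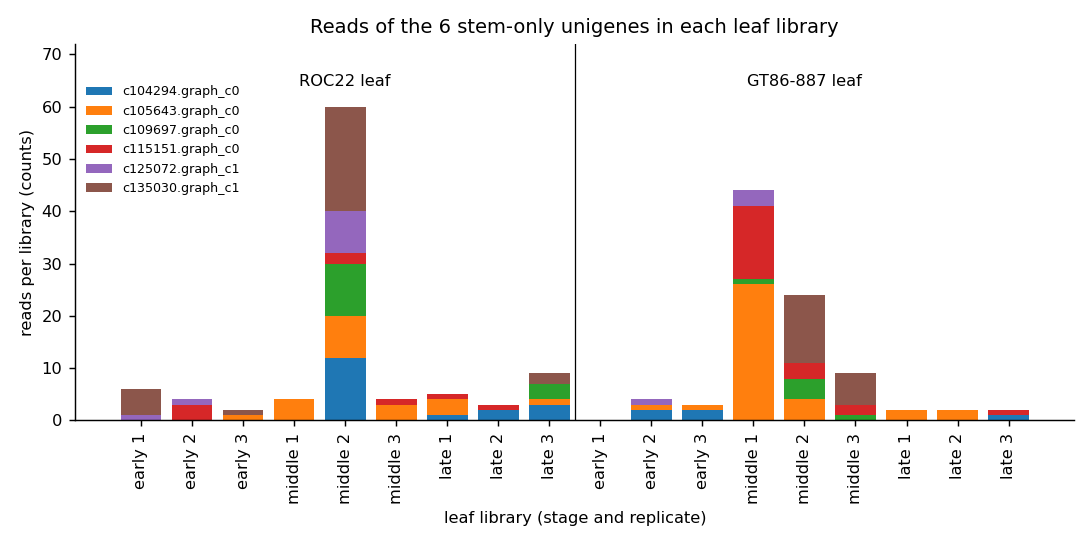
Bars give the counts of the 6 stem-only unigenes in each of the 18 leaf libraries, ROC22 left and GT86-887 right, ordered by stage and replicate and coloured by unigene. Replicate 2 of ROC22 leaf at the middle stage holds 60 reads in all, replicates 1 and 2 of GT86-887 leaf at the middle stage hold 44 and 24, and each other leaf library holds 0 to 9.

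The few leaf reads were unevenly spread over the libraries. Summed over the 6 unigenes, the middle-stage leaf libraries held 4 to 60 reads (median 16.5, n = 6) and the early and late ones together 0 to 9 (median 3, n = 12). Replicate 2 of ROC22 leaf at the middle stage held 60 reads, 12 of c104294, 8 of c105643, 10 of c109697, 2 of c115151, 8 of c125072 and 20 of c135030. It was the only leaf library with reads of all 6. Per unigene, its level was 0.596% to 3.74% of the mean of the ROC22 stem libraries of that stage. Replicate 1 of GT86-887 leaf at the middle stage held 44 reads of 4 unigenes in another proportion, 26 of c105643, 14 of c115151, 3 of c125072 and 1 of c109697, with none of c135030 or c104294. Its levels were 0.0790% to 10.5% of the matching stem mean for the 4 unigenes with reads. Over all unigenes this library also stood apart from its group, with a chi-square of 58.9 and 75.6 per unigene against the other replicates, whereas the other 16 pairs of leaf replicates gave 8.75 to 33.8. Its part in the uneven leaf reads was not tested. Replicate 2 of the same group held 24 reads, 13 of c135030, 4 each of c105643 and c109697, and 3 of c115151. These libraries were singled out after their values were seen.

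Other unigenes high in stem and low in leaf gave a measure of the same kind. The 42 other unigenes with a stem median of at least 10 CPM and a leaf median under 1 CPM in both genotypes summed to 37.0 CPM in replicate 2 of ROC22 leaf at the middle stage. In replicates 1 and 2 of GT86-887 leaf at that stage they summed to 23.0 and 49.3 CPM, and in the remaining 15 leaf libraries to 15.6 to 32.0 CPM. Of the 3 leaf libraries with most reads of the members, 2 therefore lay above that range and 1 within it. Stem RNA in those libraries was not tested as a source of the reads.

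Within the stem, levels of different unigenes were compared per length, on the FPKM values that the authors deposited. c135030 was highest at 359 ± 125 FPKM (SD, n = 18), followed by c109697 at 98.1 ± 33.1, c104294 at 80.3 ± 109, c125072 at 62.0 ± 17.0, c115151 at 22.2 ± 14.8 and c105643 at 17.2 ± 4.08 FPKM. c104294 overlapped its neighbours in this order widely, and c115151 and c105643 differed by less than the spread of c115151. The ratio of CPM to FPKM gave implied lengths of 225 bases for c135030, 373 for c125072, 428 for c104294, 480.3 for c109697, 679 for c105643 and 1042 for c115151, if both were scaled to the same library total. All but c115151 were shorter than the lower quartile of 1017 bases over the 10805 unigenes that met the stem minimum, whose median was 1570. The lengths given per member are medians over the stem libraries, and the implied length changed between libraries. It ran from 196 to 240 bases for c135030, 343 to 389 for c125072 and 1014 to 1075 for c115151. A fixed length would not change, so these values may differ from the lengths of the assembled pieces. Reads of near-identical gene copies, which the polyploid sugarcane genome holds in number, could have been split between such pieces.

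**Figure D3:**
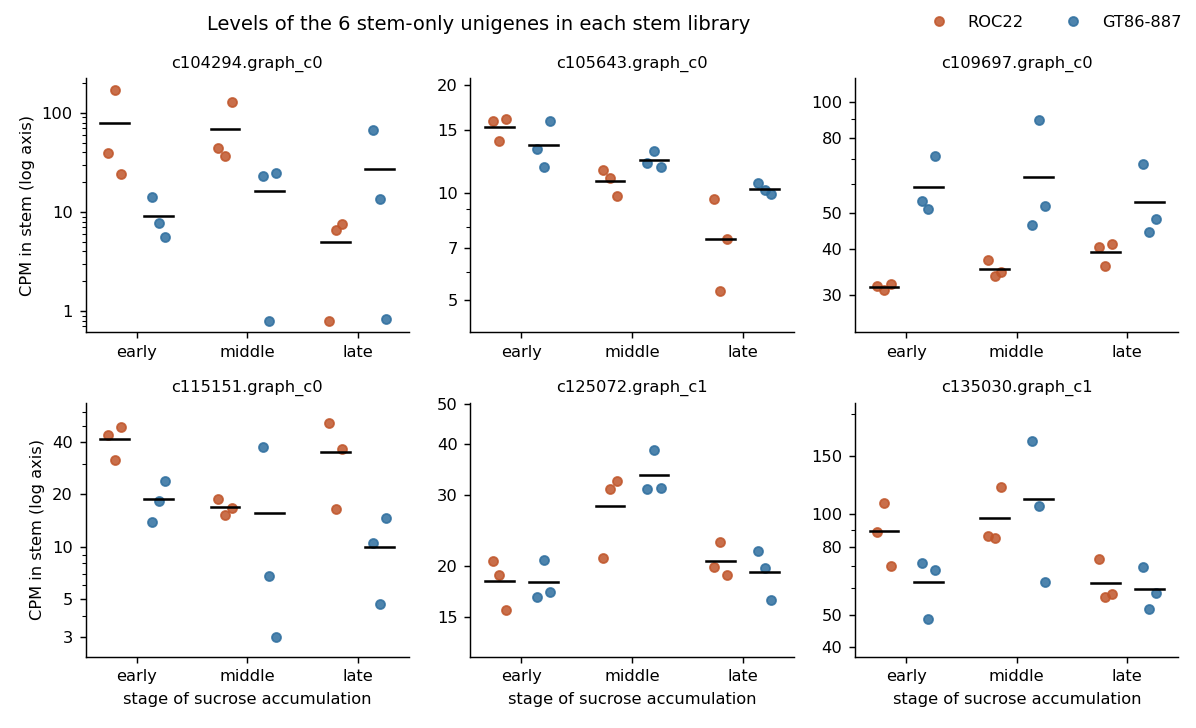
Points are single stem libraries and black lines the mean of 3 (CPM, log axes that differ between panels), with ROC22 in orange left of GT86-887 in blue at each stage. c109697 is lower in each ROC22 library than in each GT86-887 library, c125072 has its middle-stage libraries on top of the early ones, c105643 steps down from early to late, and c104294 spans 0.797 to 171 CPM.

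The members differed widely in how well libraries of a group agreed. Over the 6 stem groups, the pooled SD between replicates on the log2 scale was 0.203 for c105643, 0.210 for c125072, 0.271 for c109697 and 0.385 for c135030. The median was 0.220 over the 12359 unigenes tested with a mean stem level of at least 10 CPM. c115151 had an SD of 0.931 and c104294 one of 2.02, larger than in 97.7% and 99.8% of those unigenes. Across all 18 stem libraries the highest level of c104294 was 215 times the lowest, that of c115151 17.2 times, and those of the other 4 between 2.48 and 3.42 times.

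The genotype contrast asked whether a stem-only unigene differed in level between ROC22 and GT86-887 stems. As the rule required a stem minimum in both, it could not pick a unigene missing from either genotype. The 18 stem libraries were fitted together with 1 mean per genotype and stage, the difference was averaged over the stages, and all 36199 unigenes that passed the filter on low counts, the 6 among them, were adjusted together. At an adjusted p under 0.05, 1 of the 6 was higher in ROC22 and 1 lower. Of all tested unigenes 55.0% were called, 26.6% higher and 28.4% lower. The 6 unigenes are too few to set 2 called apart from that share. The background also included unigenes that did not meet the stem minimum in both genotypes. The median log2 difference was 0.12 over the 6 and -0.02 over all tested.

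c109697 was the member that was lower in ROC22. ROC22 stem libraries held 31.7, 30.8 and 32.1 CPM at the early stage, 37.3, 33.6 and 34.5 at the middle stage and 40.4, 35.96 and 41.3 at the late stage. GT86-887 stem libraries held 54.0, 51.4 and 71.4 CPM at the early stage, 46.4, 89.4 and 52.4 at the middle stage and 67.9, 44.4 and 48.1 at the late stage. The highest ROC22 library (41.3 CPM) lay below the lowest GT86-887 library (44.4 CPM), and the ROC22 libraries were the more tightly grouped. How many of all unigenes separate fully between genotypes or between stages was not counted, here or for the separations below. The means were 35.3 ± 3.77 CPM in ROC22 and 58.4 ± 14.9 CPM in GT86-887 (SD, n = 9 each), a log2 difference of -0.63 ± 0.12 (SE, edgeR quasi-likelihood test, adjusted p = 0.000431). No stage difference of c109697 passed the test, with log2 values of -0.04, 0.00 and -0.04 for middle minus early, late minus middle and late minus early.

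c115151 was higher in ROC22, with overlapping libraries. ROC22 stem libraries held 43.9, 31.6 and 49.1 CPM at the early stage, 18.8, 15.3 and 16.7 at the middle stage and 51.8, 16.6 and 36.8 at the late stage. GT86-887 stem libraries held 13.8, 18.4 and 23.9 CPM at the early stage, 37.4, 6.75 and 3.01 at the middle stage and 10.5, 4.67 and 14.6 at the late stage. The groups separated fully at the early stage and at the late stage, whereas at the middle stage replicate 1 of GT86-887 lay above all 3 ROC22 libraries. The means were 31.2 ± 14.9 CPM in ROC22 and 14.8 ± 10.8 CPM in GT86-887 (SD, n = 9 each), a log2 difference of 1.11 ± 0.38 (edgeR, adjusted p = 0.0211). Without replicate 1 of GT86-887 stem at the middle stage, the library that correlated least with its group, it was 1.70 ± 0.25 (edgeR, adjusted p = 2.26e-05, range over all alternatives 2.26e-05 to 0.0459).

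The other 4 members did not pass the genotype test. c105643 had medians of 11.0 CPM in ROC22 and 11.8 CPM in GT86-887, and c125072 of 20.6 and 20.7 CPM, with log2 differences of -0.07 ± 0.10 and 0.04 ± 0.10 (edgeR, adjusted p = 0.598 and 0.766). c135030 had medians of 84.9 CPM in ROC22 and 68.1 CPM in GT86-887, a log2 difference of 0.21 ± 0.16 (edgeR, adjusted p = 0.293). Without replicate 1 of GT86-887 stem at the middle stage, where c135030 reached 166 CPM, it was 0.37 ± 0.13 (edgeR, adjusted p = 0.0207, range over all alternatives 0.0207 to 0.563). For c104294 the median was 36.5 CPM in ROC22 and 13.5 CPM in GT86-887, and the log2 difference of 1.0 ± 0.68 did not pass (edgeR, adjusted p = 0.229). Leaving out 1 stem library gave 0.56 to 1.65 (edgeR, adjusted p 0.0504 to 0.515).

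**Figure D4:**
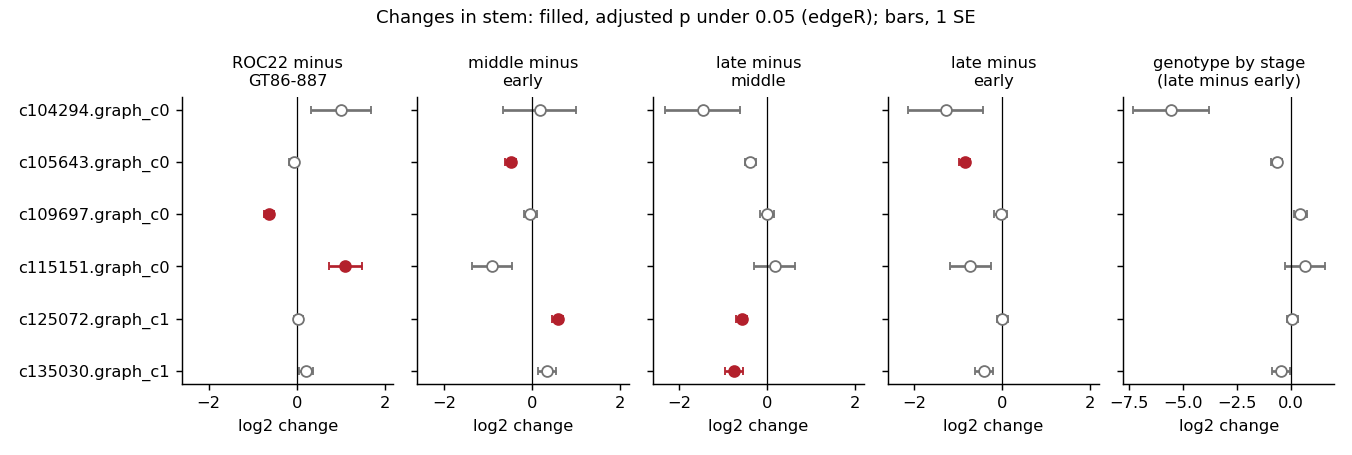
Log2 differences (x axes) of the 6 stem-only unigenes (rows) in the 5 stem contrasts, with bars of 1 SE. Filled red points passed an adjusted p of 0.05 in the edgeR test over all unigenes, and open points did not. 2 members are filled in each of the first 3 panels, 1 in late minus early and none in genotype by stage, whose axis is wider because c104294 lies at -5.56.

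The stage contrasts asked whether stem-only unigenes changed as sucrose accumulated, averaged over both genotypes. From early to middle, 1 of the 6 rose and 1 fell, where 23.6% of all tested unigenes were called (11.8% in each direction). From middle to late none rose and 2 fell, against a background of 6.59% (3.69% higher, 2.91% lower). Over the whole span from early to late none rose and 1 fell, against 29.1% (14.2% higher, 14.9% lower). The median log2 differences of the 6 in these contrasts were 0.07, -0.48 and -0.57, beside 0.02, -0.03 and -0.03 over all tested unigenes. The -0.57 lies between the values of c135030 and c115151, neither of which passed in late minus early. With 6 members and SEs of up to 0.85, these medians say little about the set. The contrasts share libraries and are not independent of one another.

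c105643 fell across the stages. ROC22 stem libraries held 15.8, 13.9 and 16.1 CPM at the early stage, 11.6, 11.0 and 9.80 at the middle stage and 9.62, 5.29 and 7.41 at the late stage. GT86-887 stem libraries held 13.2, 11.8 and 15.8 CPM at the early stage, 12.1, 13.1 and 11.8 at the middle stage and 10.6, 10.2 and 9.93 at the late stage. Every late library lay below every early one, and the drop was the steeper in ROC22 by its means, although that difference did not pass its own test, given below. Late stems averaged 8.84 ± 2.07 CPM and early stems 14.5 ± 1.75 CPM (SD, n = 6 each), a log2 difference of -0.86 ± 0.13 (edgeR, adjusted p = 0.000138). Middle minus early was -0.48 ± 0.13 (edgeR, adjusted p = 0.0123), with the libraries of both stages overlapping. With all 36 libraries fitted together the difference was the same size with a larger error, -0.48 ± 0.30, and missed the threshold (edgeR, adjusted p = 0.275, range over all alternatives 0.00200 to 0.275). Late minus middle was -0.38 ± 0.13 and missed the threshold (edgeR, adjusted p = 0.0836). It passed without replicate 1 of ROC22 stem at the late stage, at -0.48 (edgeR, adjusted p = 0.0354, range over all alternatives 0.0354 to 0.547). The level of c105643 near 10 CPM rested on 120 reads in its lowest stem library.

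c125072 was highest at the middle stage. ROC22 stem libraries held 20.6, 19.0 and 15.6 CPM at the early stage, 21.0, 30.9 and 32.4 at the middle stage and 19.9, 22.9 and 19.0 at the late stage. GT86-887 stem libraries held 16.8, 20.7 and 17.3 CPM at the early stage, 30.9, 38.7 and 31.2 at the middle stage and 21.8, 19.9 and 16.5 at the late stage. Of the 6 middle-stage libraries, 5 stood clear of all others, and replicate 1 of ROC22 was only just above the highest early library and below 2 late ones. Middle stems averaged 30.8 ± 5.68 CPM and early stems 18.3 ± 2.10 CPM (SD, n = 6 each), a log2 difference of 0.58 ± 0.12 (edgeR, adjusted p = 0.00278). Late minus middle was -0.58 ± 0.12 (edgeR, adjusted p = 0.0126), and late minus early was 0.00 ± 0.12 (edgeR, adjusted p = 1.0). In the fit of all 36 libraries both differences kept about their size with larger errors and missed the threshold. Middle minus early was 0.58 ± 0.24 (edgeR, adjusted p = 0.0930, over all alternatives 0.000337 to 0.0930) and late minus middle -0.55 ± 0.24 (edgeR, adjusted p = 0.176, over all alternatives 0.00127 to 0.176).

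c135030 was lower at the late stage than at the middle stage. ROC22 stem libraries held 88.7, 108 and 70.0 CPM at the early stage, 86.4, 84.9 and 121 at the middle stage and 73.2, 56.3 and 57.6 at the late stage. GT86-887 stem libraries held 71.3, 48.6 and 68.1 CPM at the early stage, 166, 106 and 62.9 at the middle stage and 69.5, 52.0 and 57.9 at the late stage. The late libraries were close together, while those of the middle stage spanned 62.9 to 166 CPM and overlapped them through replicate 3 of GT86-887. Late stems averaged 61.1 ± 8.32 CPM and middle stems 104 ± 36.04 CPM (SD, n = 6 each), a log2 difference of -0.75 ± 0.20 (edgeR, adjusted p = 0.0359). Middle minus early was 0.34 ± 0.20 and late minus early -0.41 ± 0.20, and neither passed (edgeR, adjusted p = 0.241 and 0.136).

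The late-stage fall of c135030 kept its direction in all 18 fits that left out 1 library, with log2 values of -0.89 to -0.52, and lay close to the threshold. It passed in 11 of those fits and in 15 of 23 alternatives (edgeR or DESeq2, adjusted p 0.00126 to 0.194). Without replicate 1, 2 or 3 of ROC22 at the middle stage it was -0.78, -0.81 and -0.67 and missed the threshold (edgeR, adjusted p = 0.0525, 0.0575 and 0.0998). Without replicate 2 or 3 of ROC22 at the late stage it was -0.73 in both cases (edgeR, adjusted p = 0.0760 and 0.0682). Without replicate 2 or 3 of GT86-887 at the late stage it was -0.70 and -0.71 (edgeR, adjusted p = 0.0765 and 0.0975). In the fit of all 36 libraries it was -0.73 ± 0.34 (edgeR, adjusted p = 0.194). Without replicate 1 of GT86-887 at the middle stage, its highest library, the call held at -0.52 ± 0.16 (edgeR, adjusted p = 0.0491), and late minus early passed as well at -0.41 ± 0.15 (edgeR, adjusted p = 0.0419, range over all alternatives 0.0419 to 0.448). Middle minus early passed at 0.48 only without replicate 3 of GT86-887 at the middle stage (edgeR, adjusted p = 0.0446, range over all alternatives 0.0446 to 0.697).

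For c115151 and c104294 no stage contrast passed. c115151 gave log2 values of -0.90 ± 0.46 for middle minus early and -0.73 ± 0.46 for late minus early (edgeR, adjusted p = 0.173 and 0.263). Its late minus middle value was 0.17 ± 0.46 (edgeR, adjusted p = 0.885). With replicate 1 of GT86-887 stem at the middle stage left out, middle minus early was -1.79 ± 0.31 (edgeR, adjusted p = 0.000721, range over all alternatives 0.000721 to 0.293) and late minus middle was 1.06 ± 0.31 (edgeR, adjusted p = 0.0418, range over all alternatives 0.0418 to 1.0). Without the filter on low counts, middle minus early also passed at -0.92 (edgeR, adjusted p = 0.0256). At 37.4 CPM the left-out library was the highest of its stage, where the other 5 held 3.01 to 18.8 CPM. c104294 gave 0.18 ± 0.82 for middle minus early and -1.46 ± 0.85 for late minus middle (edgeR, adjusted p = 0.918 and 0.317).

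An interaction term tested whether late minus early was the same in ROC22 as in GT86-887. No member was called by edgeR or by DESeq2, and 2 were below an unadjusted p of 0.05 with each tool. Of all tested unigenes 0.138% were called, 0.0939% higher and 0.0442% lower. c104294 was the member with the largest value. Its ROC22 stem libraries held 39.5, 171 and 24.4 CPM at the early stage, 44.2, 36.5 and 128 at the middle stage and 0.797, 6.57 and 7.63 at the late stage. Its GT86-887 stem libraries held 14.2, 7.82 and 5.56 CPM at the early stage, 23.0, 0.797 and 24.9 at the middle stage and 68.0, 13.5 and 0.838 at the late stage. Every late ROC22 library lay below every early ROC22 library, whereas late GT86-887 libraries fell on both sides of the early ones. The difference of the changes was -5.56 ± 1.77 on the log2 scale (edgeR, adjusted p = 0.227), and with DESeq2 it was -5.54 ± 1.78 (adjusted p = 0.0734). Without the filter on low counts it passed (edgeR, adjusted p = 0.00151, range over all alternatives 0.00151 to 0.493). The value of c105643, -0.64 ± 0.25, was the other one with a low unadjusted p (edgeR, adjusted p = 0.338).

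**Figure D5:**
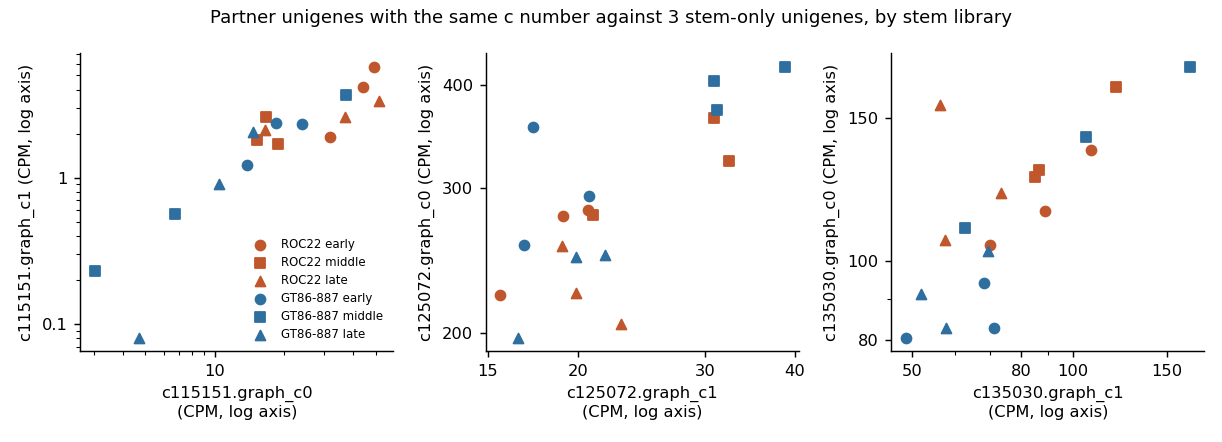
Each panel sets a stem-only unigene (x axis) against the unigene with the same c number (y axis), both in CPM on log axes, in the 18 stem libraries. Colours mark ROC22 and GT86-887 and symbols the stage. In all 3 panels libraries with more of one tend to hold more of the other, and the points of the c115151 panel lie closest to a line.

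For 3 of the 6 members the files held a second unigene with the same c number and another ending, which may come from the same assembled locus. The sources used here do not explain the endings. These partners were looked at after the members were known. The partner of c115151, c115151.graph_c1, held 2.19 ± 1.41 CPM in stem and 1 read in all leaf libraries together. The partner of c125072, c125072.graph_c0, averaged 290 ± 68.2 CPM over the stem libraries and 2.75 ± 1.34 CPM over the leaf libraries (SD, n = 18 each). For the partner of c135030, c135030.graph_c0, these means were 118 ± 28.1 CPM and 1.98 ± 0.675 CPM. The partners of c125072 and c135030 were higher in every stem library than in any leaf library, and both lay above the leaf limit. The partner of c115151 lay below the stem minimum. Its lowest stem library held 2 reads and its highest leaf library 1, both under the 3 reads that a count of 0 allows, so that separation was not resolved. Per length, the partner of c125072 stood at 209 FPKM against 62.0 for the member itself, and the partner of c135030 at 226 FPKM against 359.

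Members and partners moved together across the 18 stem libraries. Their log2 levels correlated at 0.934 for c115151, 0.745 for c125072 and 0.754 for c135030. These correlations are descriptions, since both values of a point share a library, its depth and possibly reads. They used CPM without TMM scaling and another small offset than the correlations between members below, so the values are not directly comparable. The partner of c125072 fell from middle to late by 0.61 ± 0.11 on the log2 scale (edgeR, adjusted p = 0.00574), close to the -0.58 ± 0.12 of the member. Its middle minus early value of 0.20 ± 0.11 did not pass (edgeR, adjusted p = 0.202), and its late minus early value was -0.41 ± 0.11 (edgeR, adjusted p = 0.00960), where the member gave 0.00. The partner of c135030 was higher in ROC22 by 0.40 ± 0.11 (edgeR, adjusted p = 0.00767), and its late minus middle value of -0.34 ± 0.14 did not pass (edgeR, adjusted p = 0.151). The partner of c115151 gave 1.04 ± 0.47 for ROC22 minus GT86-887 (edgeR, adjusted p = 0.0737), beside 1.11 ± 0.38 in the member. No test of the difference between a member and its partner was made.

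Among themselves the 6 members shared their tissue and little of their pattern within the stem. Over the 15 pairs, the correlation of TMM-scaled log2 levels across the 18 stem libraries had a median of 0.13. It ran from -0.43, for c104294 with c109697, to 0.52, for c125072 with c135030. In deviations from the group means, the highest value was 0.68 for c115151 with c135030, both of which were highest within their group in replicate 1 of GT86-887 at the middle stage. None of the members, and none of the 3 partners, was listed as a target among the 871 pairs of small RNA and unigene in the degradome table. That table named 752 unigenes, among them 465 of the 10805 that met the stem minimum (4.30%).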

How the data were processed

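Per the labels, mRNA was sequenced in 36 libraries of total RNA extracted with Trizol, small RNA in 24 and the degradome, the 5' ends of uncapped RNA fragments, in 8. The authors deposited whole-read counts per unigene and library. FPKM values stand next to them per the file headers. The sources used here name no assembler, aligner or counting program and do not say whether strand was used. The small RNA table was not used, and the degradome table was used only to look up listed targets.

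CPM was the deposited count over the summed counts of the library. The 18 stem libraries were fitted with edgeR 4.0.16 in R 4.3.3 (filterByExpr, TMM, quasi-likelihood test, 1 coefficient for each of 6 groups, no replicate block), and p-values were adjusted by Benjamini-Hochberg over all 36199 unigenes tested. DESeq2 1.42.0, other scalings, no filter, a fit of all 36 libraries, a replicate block and leaving out each library were alternatives. Leaving out each leaf library from the mean leaf levels was added after seeing the data. FPKM served only to compare levels between unigenes and to imply lengths. No 2 libraries of a group were duplicates by a chi-square of their counts, the lowest value being 8.75 per unigene.

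The members and the choices of tests were made with earlier results of these data known. The rule for naming took, per comparison, the members with the largest called change whose libraries did not overlap between the groups, and the 2 with the highest mean stem CPM. All 6 members are nevertheless named, being the whole set, and the others, the 3 partner unigenes and the leaf libraries singled out were chosen after their values were seen. No list of marker genes could be used.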

Additional observations from a re-analysis of the deposited data

Results flagged for a closer look

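The leaf libraries were not tested, and 1 of them held more reads of the stem-only unigenes than the rest. Replicate 2 of ROC22 leaf at the middle stage held 60 reads of the 6 unigenes together and was the only leaf library with reads of every 1 of them. A total count of 0 would have allowed up to 3 reads. The other leaf libraries held 0 to 44 reads, and the stem libraries 3259 to 8156.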

How the results depend on the processing

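Counts of called members stayed within 1.5 times of the values given in all but the following settings. In the fit of all 36 libraries, 0 members were called for middle minus early and 0 for late minus middle. Without the filter on low counts, 1 was called for genotype by stage. Leaving out 1 stem library gave 1 to 3 members for late minus middle and 1 to 2 for late minus early, the 2 arising without replicate 1 of GT86-887 stem at the middle stage. A stem minimum of 20 CPM left 3 members. CPM scaled by TMM, or a leaf limit of 0.05 CPM, left 5, without c105643, and leaving out 1 library gave 6 to 7, with all 6 kept each time. With means in place of medians the rule found 6 unigenes, 3 of them shared. Lost were c105643, c135030 and c115151, whose leaf means exceeded the limit of 0.1 CPM. These means were 0.109 CPM in ROC22 and 0.201 in GT86-887 for c105643, and 0.154 and 0.112 for c135030. For c115151 the leaf mean was 0.112 CPM in GT86-887. Of the values of single members under alternatives, 635 kept direction and side of the threshold, 8 newly passed it and 11 no longer did. The other 36 changed sign, all of them under differences that passed in neither fit. Late minus middle of c109697, 0.00 as given, was 0.0130 with relative log expression scaling, 0.00401 without the filter, 0.0252 in the fit of all 36 libraries and 0.0137 with DESeq2, and -0.12 to 0.17 without 1 library. Leaving out 1 library likewise gave -0.21 to 0.0469 for its middle minus early and -0.16 to 0.0439 for its late minus early. For c125072 it gave -0.0190 to 0.0871 for genotype, -0.0578 to 0.0727 for late minus early and -0.0371 to 0.20 for genotype by stage. For c104294 middle minus early it gave -0.20 to 0.82, and for c115151 late minus middle -0.0632 to 1.06.

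With the replicate number as a block, 2, 2, 2, 1 and 0 members were called for genotype, middle minus early, late minus middle, late minus early and genotype by stage, the same counts as without it. Within the stem the numbers showed no pairing of libraries across groups. Deviations of same-numbered stem libraries correlated at a mean of -0.0287, -0.0129 and -0.0505 for numbers 1, 2 and 3 (-0.265 to 0.138 over single pairs). Pairing of stem with leaf libraries by number was not checked. Over all unigenes, genotype by stage called 50, but 0 with the block, 540 with DESeq2, 444 without the filter, 269 in the fit of all 36 libraries and 0 to 325 without 1 library. Late minus middle called 2387, but 3856 with DESeq2, 3594 in the fit of all 36 libraries and 998 to 3557 without 1 library. The causes were not tested. In leaf, depth leaves levels under about 0.1 CPM unresolved in a single library.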
